A study of Mus musculus with 8 samples.

Results

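The regions described here are 1133 tiles of the mouse genome, each 200 bp long, whose DNA methylation differed after long culture of colon organoids in both organoid lines and which were listed in neither line's BrafV600E comparison. They were chosen by the measured values themselves: a tile was taken when the authors' deposited tables list it for long culture in line 1 and in line 3, in either direction, and when none of the 4 deposited BrafV600E tables lists the same tile. The deposited tables hold 53375 distinct tiles in all. Of these, 8263 (15.5%) are listed for long culture in line 1 and 21524 (40.3%) in line 3, and 3220 are listed in both. The 1133 tiles make up 35.2% of those 3220, 13.7% of the line 1 list and 5.26% of the line 3 list. Just outside the rule lie 1493 tiles that are listed for long culture in both lines and in 1 BrafV600E comparison, and 594 that are listed in all 4 comparisons.

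The libraries are reduced representation bisulfite sequencing, an assay that reads CpG-rich fragments of the genome after unmethylated cytosines have been converted. Organoids were grown from the proximal colon (the first 2.5 cm) of male mice about 40 days old that carried 1 Cre-activable BrafV600E allele (Braf+/LSL); whether lines 1 and 3 come from separate mice is not given in the sources used here, and the series' design calls the long cultures biological replicates. Long-cultured organoids had received the empty lentiviral vector, so that BrafV600E stayed silent, and were kept in full medium with Wnt3a, R-Spondin, Noggin and EGF for 12 months (line 1) or 14 months (line 3); the reference in each line was the empty-vector culture at 2 months in the same medium. In the BrafV600E comparisons, organoids with the allele switched on by lentiviral Cre and grown in Base medium without the stem-cell niche factors were set against empty-vector organoids in full medium, both at 5 months. The allele, Cre and the medium thus changed together in the BrafV600E comparisons and cannot be told apart. Below, the name BrafV600E stands for that whole comparison. All 8 libraries are labelled with 3 further weeks of growth.

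Each table sets 1 library against 1 library; it holds the tiles whose methylation levels are 20 percentage points or more apart and whose q-value does not exceed 0.01. A q-value therefore describes those libraries, not the conditions, and lines 1 and 3 are the only replicates. Every tile difference given here is the authors' deposited value, long culture minus 2 months, in percentage points of methylation. "Gain" and "loss" mean that a tile is listed as higher or lower. With no read counts to use, depth is unknown, and a single tile has no error of its own. A tile missing from a table may be unchanged, under the limits or uncovered, so absence from the BrafV600E tables does not show that BrafV600E left a tile as it was. The level at 2 months also limits the direction, since methylation cannot fall where there is none or rise where it is complete. The library titled 14 months carries 2 months in other label fields, and the line 1 BrafV600E library has line 3 in its source name; the titles were followed, and both the choice of tiles and every line 3 value rest on that.

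In mammalian DNA, methyl groups sit mostly on the cytosine of CpG pairs. Most of the genome is methylated, while the CpG-rich islands at many gene starts are kept free of methylation. Islands of developmental regulators, often held silent by Polycomb proteins in tissues that do not use them, are known to gain methylation with age, with prolonged culture and in colon tumours, whereas CpG-poor DNA between genes tends to lose it as cells keep dividing.

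The sequences of 10 tiles at gene starts show the kind of DNA involved. They were picked after their values were seen, from the 100 tiles that share at least 100 bp with a promoter window (250 bp before to 50 bp after an annotated start), to cover both directions and the disagreement of the lines. Sequences are RefSeq, build GRCm38.p6, written 5′ to 3′ on the gene's strand and cut to the part of the tile inside the window. Capitals mark CpG pairs, the sites the assay reads. The first 6 are from tiles that gained in both lines: Epo (erythropoietin), at chr5:137485801-137486000 on the minus strand, holds the promoter tile with the largest gain when the smaller of the 2 lines' values is ranked; Gata5, chr2:180334630-180334800, minus, and Nkx2-4, chr2:147085401-147085595, minus, end runs of neighbouring tiles; Gbx2, chr1:89931201-89931400, minus, and Tlx3, chr11:33203601-33203800, minus, are homeobox genes; Zfp618, chr4:62965401-62965600, plus, has the most CpG pairs of the 100.
Epo: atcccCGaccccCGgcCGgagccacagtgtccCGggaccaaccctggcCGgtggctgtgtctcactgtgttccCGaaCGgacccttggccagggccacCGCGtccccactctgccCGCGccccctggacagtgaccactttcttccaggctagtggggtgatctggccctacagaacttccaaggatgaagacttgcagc
Gata5: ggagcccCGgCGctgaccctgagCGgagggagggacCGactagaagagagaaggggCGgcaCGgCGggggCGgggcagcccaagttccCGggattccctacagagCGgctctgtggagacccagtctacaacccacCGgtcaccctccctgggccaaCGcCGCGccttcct
Nkx2-4: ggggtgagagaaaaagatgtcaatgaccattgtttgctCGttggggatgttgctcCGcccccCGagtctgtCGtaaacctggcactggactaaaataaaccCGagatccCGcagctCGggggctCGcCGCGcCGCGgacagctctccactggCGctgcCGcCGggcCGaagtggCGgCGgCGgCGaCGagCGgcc
Gbx2: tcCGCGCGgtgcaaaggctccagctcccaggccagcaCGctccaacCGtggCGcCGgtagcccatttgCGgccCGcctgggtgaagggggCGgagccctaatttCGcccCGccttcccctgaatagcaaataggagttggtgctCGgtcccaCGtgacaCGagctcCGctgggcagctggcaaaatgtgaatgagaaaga
Tlx3: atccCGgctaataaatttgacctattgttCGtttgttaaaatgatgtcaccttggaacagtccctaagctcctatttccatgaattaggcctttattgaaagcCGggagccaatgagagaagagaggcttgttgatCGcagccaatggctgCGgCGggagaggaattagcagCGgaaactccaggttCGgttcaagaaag
Zfp618: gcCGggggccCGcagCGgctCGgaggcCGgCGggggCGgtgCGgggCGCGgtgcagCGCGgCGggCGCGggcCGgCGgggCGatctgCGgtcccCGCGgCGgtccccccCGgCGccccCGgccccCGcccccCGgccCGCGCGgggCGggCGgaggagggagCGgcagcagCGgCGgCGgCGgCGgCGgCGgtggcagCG

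The next 2 sequences are from the 3 promoter tiles that lost methylation in both lines, and the last from tiles listed as losses in line 1 and as gains in line 3. Frs3, chr17:47695001-47695200, plus, encodes an adaptor of growth factor receptors, and Irf1, chr11:53770401-53770522, plus, an interferon-regulated transcription factor. Bsx, chr9:40874001-40874176, plus, is a homeobox gene, and Scn8a, chr15:100870401-100870600, plus, encodes a voltage-gated sodium channel.
Frs3: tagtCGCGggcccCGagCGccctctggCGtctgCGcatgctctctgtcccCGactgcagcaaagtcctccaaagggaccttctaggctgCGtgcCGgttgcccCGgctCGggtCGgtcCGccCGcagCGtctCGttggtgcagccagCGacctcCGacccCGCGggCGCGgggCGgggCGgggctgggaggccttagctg
Irf1: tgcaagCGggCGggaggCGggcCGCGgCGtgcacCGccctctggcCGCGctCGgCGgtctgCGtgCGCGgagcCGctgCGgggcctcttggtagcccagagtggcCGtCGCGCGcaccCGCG
Bsx: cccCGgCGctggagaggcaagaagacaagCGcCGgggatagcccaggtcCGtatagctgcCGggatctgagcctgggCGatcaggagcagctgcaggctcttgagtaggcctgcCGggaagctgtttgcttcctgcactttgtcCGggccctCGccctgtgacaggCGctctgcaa
Scn8a: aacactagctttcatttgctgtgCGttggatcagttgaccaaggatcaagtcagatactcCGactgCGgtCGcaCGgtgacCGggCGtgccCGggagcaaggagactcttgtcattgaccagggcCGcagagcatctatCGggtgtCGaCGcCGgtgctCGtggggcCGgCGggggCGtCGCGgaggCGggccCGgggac

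The Epo tile gained 88.9 points in line 1 and 84.6 points in line 3 in the authors' deposited tables, with 11 CpG pairs in its 200 bases. The Tlx3 tile, with 8 CpG pairs in 200 bases, gained 42.4 and 49.4 points as deposited, and the Zfp618 tile, with 41, gained 54.3 and 25.2 points. At Gbx2 the deposited gains were 59.4 and 43.7 points with 16 CpG pairs. These gains were thus listed at tiles holding from 8 to 41 CpG pairs in 200 bases. The Frs3 tile (24 CpG pairs) fell by 25.2 points in line 1 and by 31.8 points in line 3 as deposited, and the Irf1 tile (22 in 122 bases) fell by 54.6 and by 21.0 points. At Bsx the deposited differences were -62.5 points in line 1 and 43.0 points in line 3. Scn8a likewise had -29.7 and 54.1 points.

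Over the 100 promoter tiles the median was 9.51 CpG pairs per 100 bases (quartiles 6.83 and 13.0) with a GC share of 70.1%. All 32817 promoter windows in the reference table had a median of 2.33 and a GC share of 52.7%. A library made by cutting at CpG-containing sites reads dense promoters first, so listed tiles of other kinds are the closer comparison. The 142 promoter tiles listed in both lines with BrafV600E only had a median of 6.0 per 100 bases and a GC share of 63.3%, the 63 listed in all 4 comparisons had 10, and all promoter tiles listed for long culture had 9.5 in line 1 and 8.67 in line 3. The long-culture-only promoter tiles thus lay close to the rest of the long-culture lists and above the BrafV600E-only tiles in CpG content. No test of these differences was made.

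Of the 1133 tiles, 627 gained methylation in both lines (55.3%, exact Clopper-Pearson 95% interval 52.4 to 58.3) and 182 lost it in both (16.1%, 14.0 to 18.3). A further 287 were lower in line 1 and higher in line 3 (25.3%, 22.8 to 28.0), and 37 were the reverse (3.27%, 2.31 to 4.47). The lines thus had the same direction at 809 tiles, or 71.4% (68.7 to 74.0). These intervals cover counting error only and treat tiles as independent, which neighbours are not. The background is uneven between the lines: gains make up 40.9% of all tiles listed for long culture in line 1 and 71.9% in line 3. Among the 1133 tiles 664 gained in line 1 (58.6%) and 914 in line 3 (80.7%). The choice of tiles used these tables, so nothing is read from the excess over the background.

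The direction classes looked much the same just outside the rule. Among the 1493 tiles that 1 BrafV600E table also lists, long-culture gains in both lines made up 53.5%, losses in both 13.8%, and loss in line 1 with gain in line 3 29.4%. Among the 594 tiles listed in all 4 comparisons the shares were 55.2%, 10.6% and 30.8%. For the 3079 tiles listed in both lines with BrafV600E and in no long-culture table, the BrafV600E differences split otherwise, with 47.2% gains in both, 30.9% losses in both, 6.79% lower in line 1 and higher in line 3, and 15.2% the reverse.

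Tiles that gained in both lines had median deposited differences of 36.9 points in line 1 (range 20.0 to 100) and 44.7 points in line 3 (20.1 to 98.2). Losses in both lines were larger in line 1, at medians of -50.0 and -40.0 points as deposited. Across the 627 shared gains the deposited sizes in the lines were only loosely related (Pearson's r = 0.246, Spearman's rho = 0.180 across tiles, which share libraries and are not replicates). For the 182 shared losses r was 0.476 and rho 0.469. Line 3 had the larger gain at 393 tiles (62.7%) and the larger loss at 47 (25.8%), and 247 gains (39.4%) agreed within 10 points. Near the lower limit, 147 tiles were under 25 points in line 1 and 119 in line 3. The tiles just inside it had a smaller difference of 20.02 to 20.09 points, and tiles under 20 points are not listed.

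**Figure D1:**
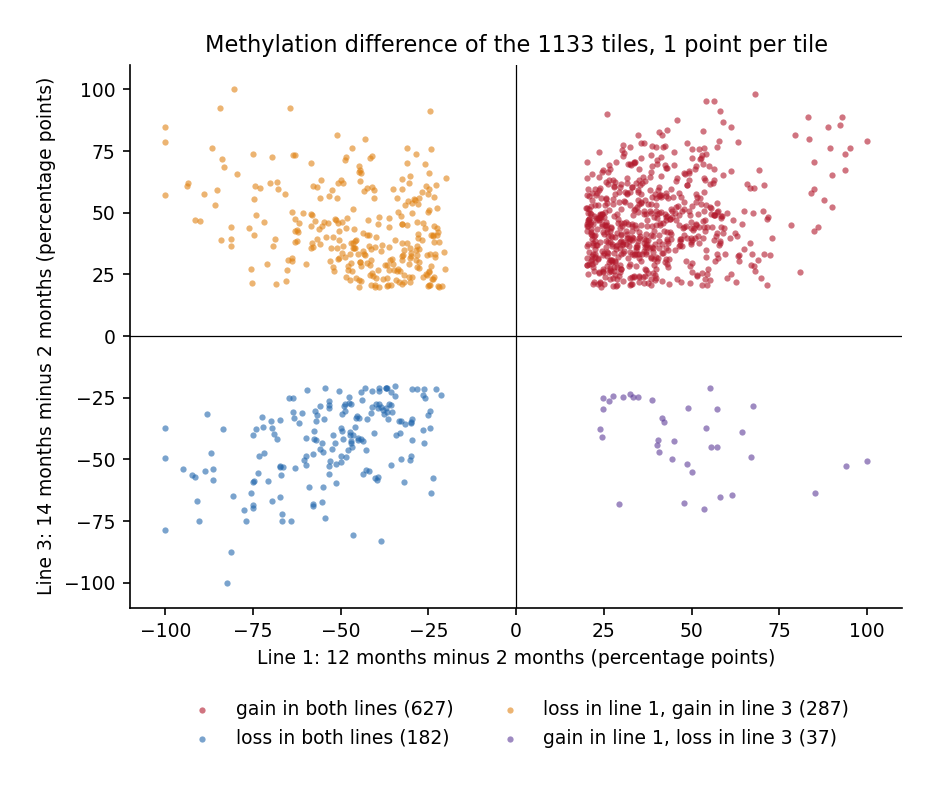
Deposited methylation difference of each of the 1133 tiles in line 1 (12 minus 2 months, x axis) and line 3 (14 minus 2 months, y axis), in percentage points, with 1 point per tile coloured by direction. The empty band around each axis is the authors' limit of 20 points; the upper right quadrant holds 627 tiles, the upper left 287, the lower left 182 and the lower right 37.

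Tiles that gained and tiles that lost differed most in how often they lay at gene ends. Within 1 kb of an annotated end of a protein-coding gene lay 339 of the 627 shared gains (54.1%), but 22 of the 182 shared losses (12.1%). Of the shared losses, 42.3% were inside genes away from the ends, 26.4% outside genes within 50 kb and 19.2% over 50 kb from any gene. Over all 53375 listed tiles these shares were 40.2%, 21.3% and 15.5%, so the losses lay only somewhat above that background. The tiles lower in line 1 and higher in line 3 were at gene ends in 42.5% and the reverse class in 27.0%. Taken over all classes, 493 of 1133 tiles (43.5%) were at gene ends, 397 (35.0%) inside genes, 157 (13.9%) between genes and 86 (7.59%) over 50 kb away. Where the reference gives the gene's strand, 345 tiles were at the end where transcription starts, 23 at the end where it stops and 9 at both.

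For all 53375 listed tiles 22.9% were at gene ends. The BrafV600E-only tiles stood at 25.4% for shared gains and 8.32% for shared losses, and the tiles listed in all 4 comparisons at 44.4%. The long-culture lists as wholes showed the same split by direction, with gene ends holding 45.1% of gains and 21.7% of losses in line 1, and 40.0% of gains and 12.5% of losses in line 3. Position depends on which fragments the assay covers and on the starting level of methylation, and the part of either was not tested. Chromosome 2 held the most of the 1133 tiles, 113 of its 4216 listed tiles (2.68%), and chromosome 18 had the lowest share among autosomes (1.44%). The genome as a whole, at 1133 of 53375 listed tiles, lay between those shares. Chromosome X held 15 of its 927 (1.62%), and the Y chromosome none of its 20 listed tiles.

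**Figure D2:**
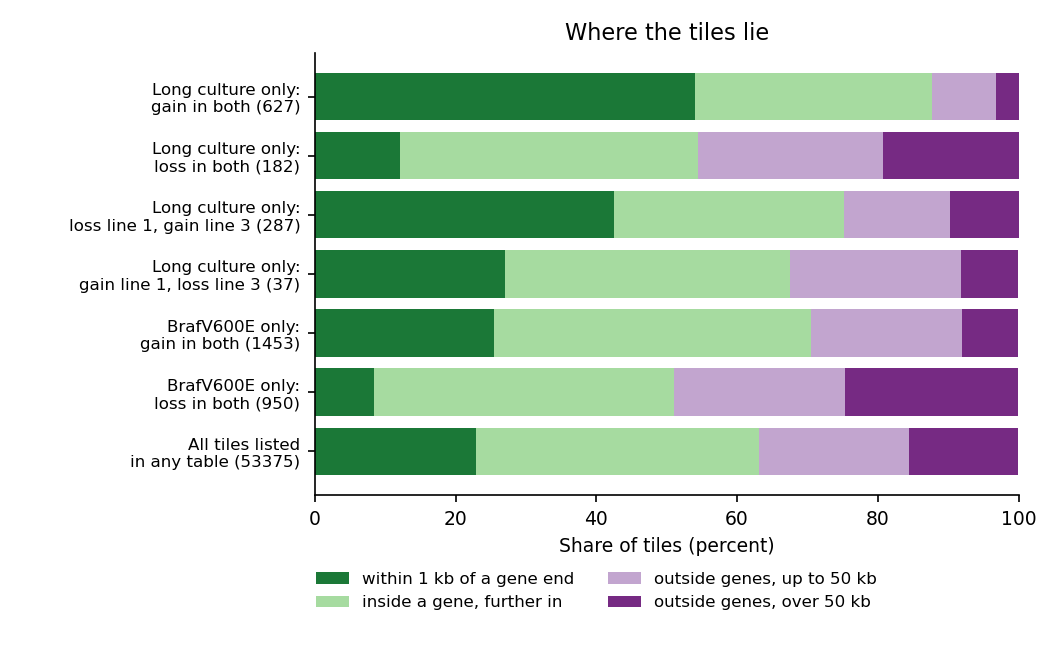
Share of tiles (percent, x axis) by place relative to protein-coding genes for each direction class of the long-culture-only tiles, for the tiles listed with BrafV600E only, and for all 53375 listed tiles, with the number of tiles in brackets. The dark green part, tiles within 1 kb of a gene end, reaches 54.1% for shared long-culture gains and 12.1% for shared losses.

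Runs of neighbouring tiles were found among the shared gains and hardly at all among the shared losses. With tiles within 500 bp of each other merged, the 1133 tiles formed 1022 regions, of which 86 (8.41%) held at least 2 tiles and 18 at least 3. Each region was classed by the mean difference of its tiles in each line. Regions gaining in both lines by that mean accounted for 75 of those 86, or 14.2% of the 530 gaining regions, against 1 of 181 losing regions. Of the 75, 5 held tiles of more than 1 direction. Only listed tiles that met the rule count toward a run, and 8 regions hold tiles of more than 1 direction. The same shares over all listed gains and losses are not available here. Runs also depend on where the assay covers adjoining tiles, and the part of coverage was not tested.

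The run with the most tiles lay over 1 end of Cdh4 (chr2:179442423-179899377), which encodes R-cadherin, a cell adhesion molecule of the nervous system and kidney. Its 5 tiles, between 179442201 and 179443600, gained 52.0, 57.7, 28.2, 34.9 and 26.5 points in line 1 (authors' deposited tables). In line 3 the same tiles gained 37.7, 37.1, 40.0, 33.4 and 26.0 points. All 5 were thus higher in both lines, and the run was not free of BrafV600E calls: within 2.5 kb of its centre other tiles are listed for BrafV600E, 2 in line 1 and 1 in line 3.

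Gata5 encodes a zinc finger transcription factor of heart and endoderm development, and its 4 neighbouring tiles (chr2:180334001-180334800) gained 21.3, 35.5, 42.7 and 56.3 points in line 1 as deposited. In line 3 they gained 49.7, 54.2, 68.0 and 67.6 points. The gain was larger in line 3 at each tile and grew toward the annotated end of the gene in line 1. No tile of Gata5 was listed as a gain with BrafV600E, and 1 was listed as a loss in line 3.

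Prdm16, a transcription factor of brown fat and blood stem cells, had 4 tiles between 154635201 and 154636800 of chromosome 4. Their deposited gains were 20.3, 30.6, 43.1 and 53.1 points in line 1 and 51.8, 72.9, 48.7 and 69.8 points in line 3. Over the whole gene the BrafV600E tables list both gains and losses. The run was not free of such calls. Within 500 bp of the tiles starting at 154636201 and 154636601 lay 4 and 5 BrafV600E-listed tiles. Dlgap4, a scaffold protein of the postsynaptic density, had 4 tiles at its start with deposited gains of 36.5 to 51.6 points in line 1 and 21.7 to 50.8 points in line 3. Stk32c, a serine/threonine kinase gene, had 4 tiles away from its outer ends but over an annotated start inside the gene. Tile centres lay at -6 and -206 bp from that start. The tile at -206 bp stood apart in line 1 with 89.9 points against 31.2 to 36.7 points at the others.

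**Figure D3:**
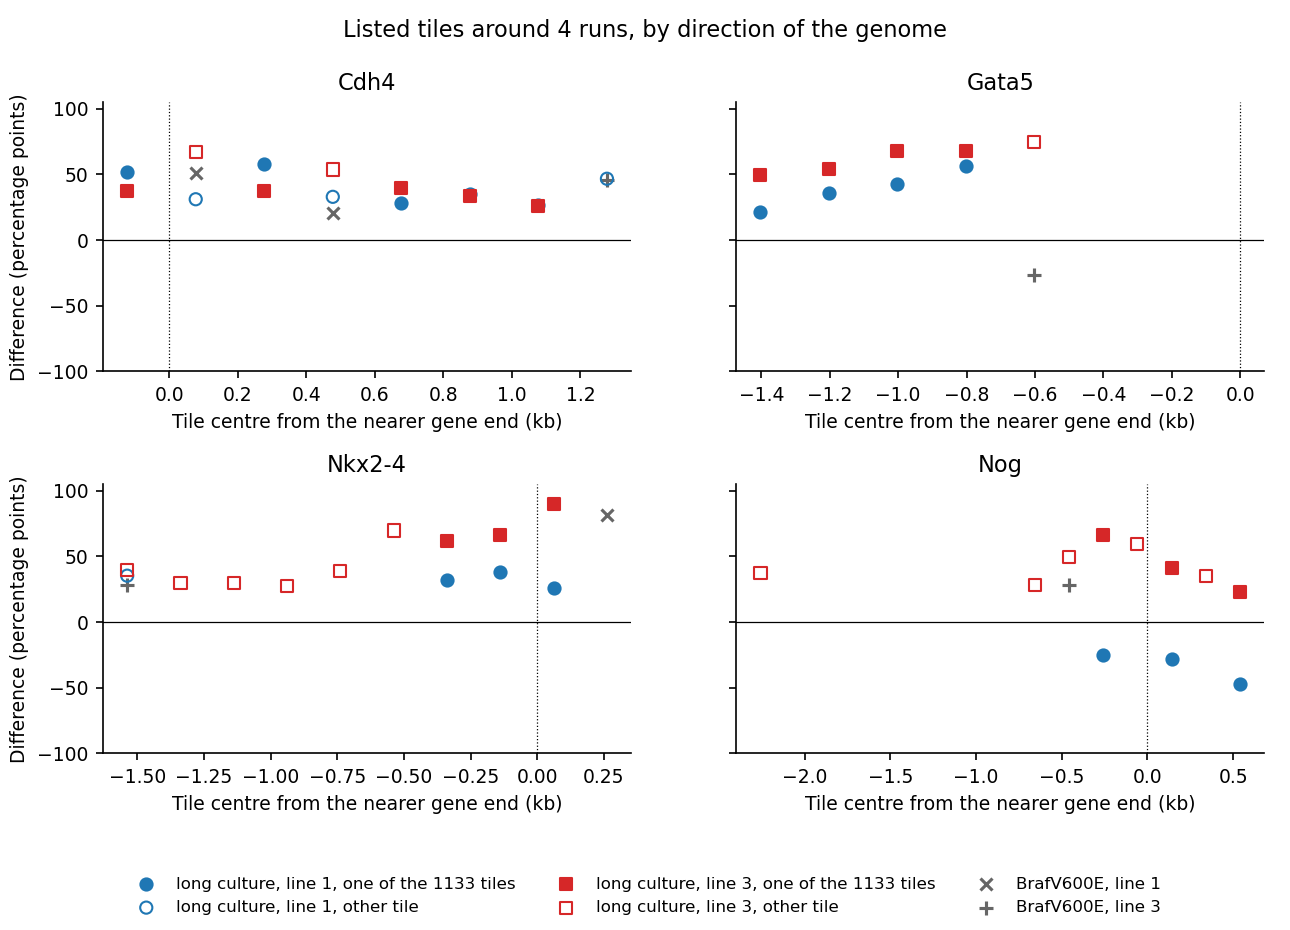
Deposited differences (percentage points, y axis) of all listed tiles around runs at Cdh4, Gata5, Nkx2-4 and Nog, by the distance of the tile centre from the nearer annotated gene end (kb, in the direction of the genome; dotted line at the end). Filled symbols are the long-culture-only tiles in line 1 (circles) and line 3 (squares), open symbols are other long-culture tiles, and grey crosses are BrafV600E tiles; the filled symbols lie above 0 in both lines at 3 of the genes and on opposite sides of 0 at Nog.

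A gene was counted as gaining when all its tiles among the 1133, inside it or within 1 kb, gained in both lines, and as losing in the reverse case. The tiles touched 746 genes: 415 gained, 84 lost and 239 had at least 1 tile with opposite directions in the lines. Of the gaining genes 85 had at least 2 such tiles, against 4 of the losing genes. At gene ends alone, 280 of the 5893 genes with a tile listed in any table gained (4.75%) and 22 lost (0.373%), while 130 had opposite or mixed directions.

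Among the genes with most gaining tiles were several transcription factors of early development. Isl2, a LIM homeobox gene of motor neurons, had 4 tiles inside the gene with deposited gains of 40.8 to 86.0 points in line 1 and 44.1 to 57.7 points in line 3. Six2, which maintains kidney progenitors, had 4 tiles at 24.0 to 53.6 and 27.4 to 76.1 points as deposited. Pax6, of the eye and endocrine pancreas, had 3 tiles with gains of 39.6, 50.2 and 47.9 points in line 1 and 57.4, 76.0 and 51.7 points in line 3. Sall3, a zinc finger factor, had 3 tiles at 30.7 to 79.5 and 54.2 to 81.5 points in the deposited tables.

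Nkx2-4, a homeobox gene of the forebrain and thyroid, showed the widest gap between the lines among these genes. Its 3 tiles across the gene start gained 31.7, 38.4 and 25.8 points in line 1 and 61.9, 66.5 and 90.0 points in line 3 (authors' deposited tables). Tcf7l1, a transcriptional repressor at Wnt target genes, gained 46.5, 48.0 and 42.4 points in line 1 and 58.1, 66.3 and 77.0 points in line 3 at 3 tiles around its start. In both genes every line 3 value exceeded every line 1 value. At Tox2, an HMG box factor, the deposited values overlapped, at 57.7, 34.6 and 48.4 points against 50.7, 55.1 and 44.5 points.

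The other genes of this group were a zinc finger gene, a receptor subunit and a tetraspan protein gene. Zfp853 gained 38.4 to 55.1 points in line 1 and 23.1 to 69.2 points in line 3 over 3 tiles as deposited. Grin2d, an NMDA-type glutamate receptor subunit, gained 25.5 to 57.3 and 34.8 to 76.7 points over 3 tiles near 1 end of the gene. Lhfpl2 gained 27.2, 81.0 and 40.8 points in line 1 and 40.2, 26.0 and 41.2 points in line 3, so that its highest tile in line 1 was its lowest in line 3. The tiles with the largest deposited gains, ranked by the smaller of the 2 lines' values, were single ones: Sh3tc2, of myelinating Schwann cells (92.9 and 88.9 points), Epo (above), Myh14, a non-muscle myosin heavy chain (83.1 and 88.9 points), and 2 tiles away from genes on chromosomes 7 (92.3 and 85.7 points) and 4 (83.3 and 80 points).

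The list of homeobox genes had the largest number of gaining genes among 13 gene lists. Like the other lists it was drawn up from symbols, and it is partial. The homeobox genes Lbx2, Otp and Gsc also have one of the 1133 tiles at an end and are not on it. They were noticed after their values were seen. Of 132 listed genes with a listed tile at an end, 24 gained (18.2%, against 4.75% of all such genes), none lost and 5 were opposite or mixed. A gene with more listed tiles has more chances to hold one of the 1133. No list was adjusted for that. Of the 1133 tiles, 43 lay at ends of genes on this list, and 37 of those gained in both lines. At all gene ends it was 339 of 493. Besides Six2 and Nkx2-4, Lhx1 of the kidney and head organizer gained 20.3 to 35.7 points in line 1 and 23.8 to 53.9 points in line 3 over 3 tiles as deposited. Gbx2, of the midbrain-hindbrain boundary, gained 59.4 and 67.6 points in line 1 and 43.7 and 49.8 points in line 3. Single-tile members included Hoxd13 (48.5 and 30.3 points), Lmx1b (53.4 and 64.3 points), Gbx1 (48.6 and 78.2 points) and Nkx6-2 (36.4 and 78.1 points). Irx5, Uncx, Hmx3 and Lhx6 were lower in line 1 and higher in line 3, and Bsx had 1 tile of that kind and 1 shared gain.

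Of 132 other developmental transcription factor genes with a listed tile at an end, 22 gained (16.7%), none lost and 2 were opposite. Foxf1, a forkhead factor of the gut mesenchyme, gained 32.6 and 84.1 points in line 1 and 29.2 and 57.9 points in line 3 (authors' deposited tables). Foxp2 gained 41.0 and 45.7 points and 45.2 and 52.2 points at 2 adjoining tiles. Sall1 (32.6 and 69.4 points), Tbx15 (45.5 and 47.1 points) and Twist1 (25.5 and 55.5 points) gained at 1 tile each. Zic1 and Zic4, which lie head to head, share their single tile (29.8 and 41.0 points), so it cannot be assigned to either.

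By number of gaining genes, the transmitter receptor and ion channel lists came next. By share, the short germline (21.4%) and TGF-beta and BMP (11.1%) lists stood above both. Transmitter receptor and synaptic genes counted 11 gaining genes of 103 (10.7%), none losing and 5 opposite or mixed. Htr7, a serotonin receptor gene, gained 45.0 and 74.8 points, Adra2a, an adrenergic receptor gene, 58.9 and 65.4 points, and Grik3, a glutamate receptor subunit gene, 46.1 and 52.7 points in lines 1 and 3 as deposited. Ion channel genes counted 10 gaining of 99 (10.1%) and 4 opposite. Kcng3 (31.5 and 57.6 points) and Cacna1i (2 tiles, 32.1 to 34.6 and 36.4 to 52.3 points) were among the gains. Kcna2 is outside this count, with a tile at an annotated start that gained 27.7 and 55.5 points. Axon guidance genes had 3 gains of 38 (7.89%) and 1 loss. The gains were at the netrin receptors Unc5d (52.5 and 71.9 points) and Unc5c (38.9 and 40.8 points) and at Ephb1. The loss was at Sema3e, with -72.4 and -32.8 points.

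Signalling and adhesion lists followed. Wnt pathway genes had 4 gains of 42 (9.52%): Tcf7l1 (above), Wnt4 (40.9 and 49.9 points), the Wnt enhancer Rspo1 (39.2 and 42.5 points) and Wnt11 (24.5 and 34.5 points). Sfrp1, a secreted Wnt antagonist, had -25.5 points in line 1 and 33.1 points in line 3 as deposited. Frzb, a gene of the same kind that is not on this list, had a tile at an end that gained 54.6 and 27.2 points. It was noticed after its values were seen. TGF-beta and BMP genes had 4 gains of 36 (11.1%), namely Gdf11 (54.1 and 73.7 points), Tgfbr3, Fstl1 and Inhbb, with Nog opposite. Cadherins and protocadherins had 4 gains of 49 (8.16%), with Cdh2, Cdh11 and Pcdh8 beside Cdh4. Cdh22 was opposite (-28.0 and 39.8 points). Extracellular matrix genes had 3 gains of 58 (5.17%) and 1 opposite gene, Col25a1 (-62.6 and 38.7 points). Zfp zinc finger genes had 3 gains and 1 loss of 92 (3.26% gaining), with Zfp423 opposite (-42.4 and 29.8 points).

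Germline genes had the highest gaining share of the 13 lists (21.4%), resting on 3 of 14 listed genes. These were Tdrd5 (54.0 and 32.1 points), Tex15 (35.5 and 30.3 points) and Dmc1, the meiotic recombinase (26.3 and 66.3 points). Of 19 imprinted genes 2 gained (10.5%) and 1 was opposite. That list is partial too. The imprinted genes Sfmbt2 (45.4 and 63.0 points at a gene end) and Zdbf2 (41.6 and 33.8 points at an annotated start) are not on it. Both were noticed after their values were seen. Rasgrf1 had the largest shared gains of any list, at 2 tiles near a gene end. They gained 68.2 and 95.2 points in line 1 and 98.2 and 76.4 points in line 3 as deposited. Grb10 gained 22.6 and 38.3 points and 38.4 and 23.3 points, and Gnas had 2 opposite tiles with -35.0 and -52.2 points against 29.1 and 40.3 points. The list of intestinal lineage and colon cell genes had none: 13 of its genes have a listed tile at an end and 0 have one of the 1133, where the share over all 5893 genes is 7.33%, so that a count of 0 in so short a list is near the background. None of the 1133 tiles lay in or near the 12 marker genes looked up, 8 of colon epithelium (such as Cdx2, Vil1 and Muc2) and 4 of mesenchyme, endothelium and blood (Vim, Col1a1, Pecam1, Ptprc), and 746 of all 21887 genes have one. Methylation alone does not show which cells the libraries held, and a share of cells that changed cannot be told apart from a change in each cell.

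**Figure D4:**
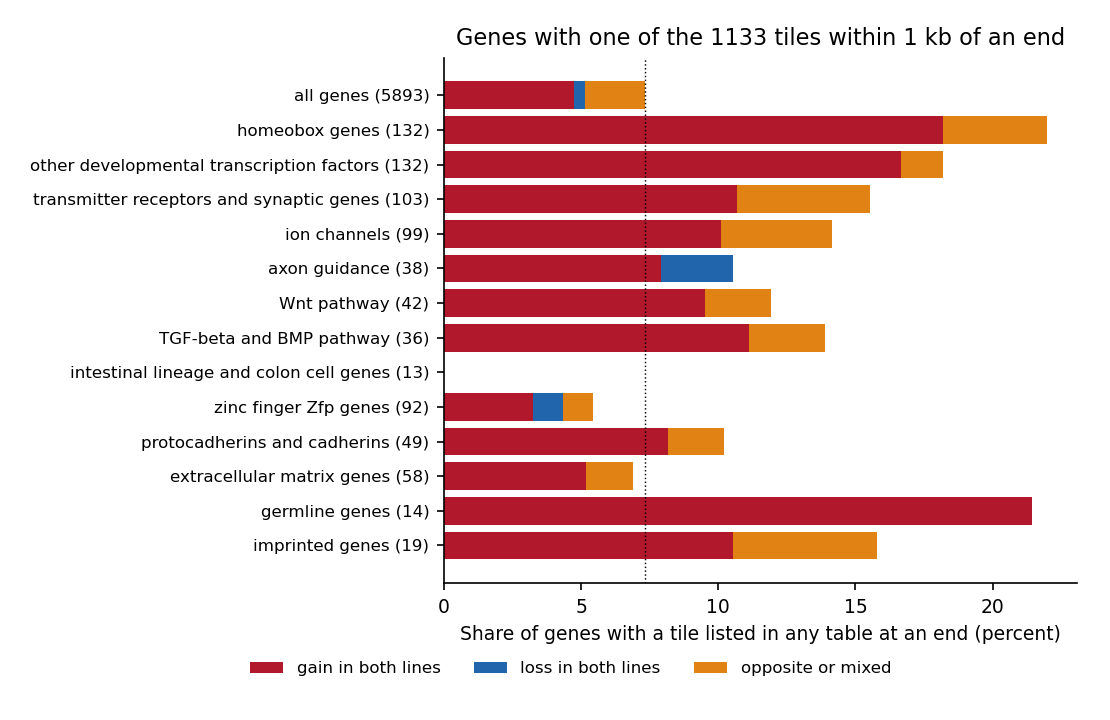
Share of genes (percent, x axis) with at least 1 of the 1133 tiles within 1 kb of an end, out of the genes of each list with a tile listed in any table there (number in brackets), split by direction. The dotted line is the share over all 5893 genes. The share gaining was 18.2% on the partial homeobox list, 16.7% for other developmental factors and 21.4% for 14 germline genes. Over all genes it was 4.75%.

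Losses shared by the lines were scattered over single tiles. Of the 182, 77 were inside genes away from the ends (42.3%, against 40.2% of all listed tiles). Atp8a1, a phospholipid flippase gene, had 2 tiles with deposited differences of -81.3 and -51.4 points in line 1 and -87.3 and -51.7 points in line 3, so the lines matched tile by tile. Gpr137 had -66.9 and -55.2 points and -56.3 and -61.1 points. Dnah17, a dynein heavy chain gene of sperm flagella, had -41.1 and -75.6 points and -28.8 and -63.4 points at tiles far apart within the gene, and Gse1 had -57.1 and -47.8 points and -42.2 and -46.3 points. These 4 were the losing genes with more than 1 tile.

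Single tiles made up the rest of the leading losses. Stim2, a calcium sensor of the endoplasmic reticulum, had -90.9 and -66.7 points upstream of its annotated start in the deposited tables. Sesn2, a stress-induced sestrin, had -66.7 and -72.1 points, Tmprss12, a membrane serine protease gene, -64.1 and -74.7 points, and Ms4a5 -59.0 and -61.2 points. Psd2 had -77.6 and -70.5 points, and Qrfprl -100 and -78.6 points. A value of 100 points can arise in a tile with few reads, and depth was not used here; the deposited q-value of the Qrfprl tile in line 1 was 0.00938, close to the limit. Ranked by the smaller of the 2 lines' values, the largest shared loss away from genes was on chromosome 4, 72000 bp from the nearest gene, at -82.4 and -100 points.

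**Figure D5:**
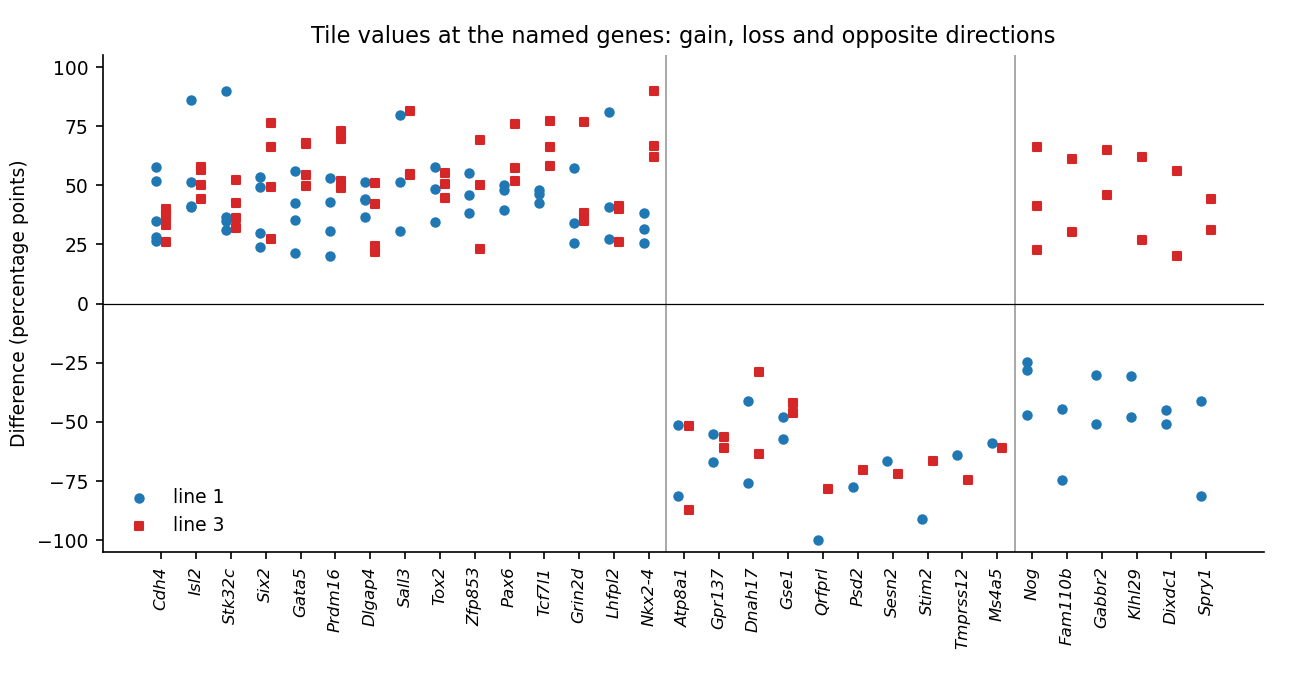
Deposited differences (percentage points, y axis) of every one of the 1133 tiles at the named genes, line 1 as blue circles and line 3 as red squares, with 1 symbol per tile. Genes are grouped by gain in both lines (left), loss in both (middle) and loss in line 1 with gain in line 3 (right), as the choice of genes fixed; losing genes have 1 or 2 tiles and gaining genes 3 to 5.

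Where the lines went opposite ways, line 1 was nearly always the lower, at 287 of 324 tiles. Nog, which encodes the BMP antagonist Noggin, also supplied in the culture medium, had 3 such tiles across a gene end. They had -24.9, -27.9 and -47.3 points in line 1 and 66.0, 41.3 and 22.8 points in line 3 (authors' deposited tables). Fam110b had -74.4 and -44.6 points against 61.1 and 30.2 points at 2 adjoining tiles at its end. Spry1, an inhibitor of receptor tyrosine kinase signalling, had -81.3 and -41.4 points against 44.4 and 31.1 points.

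At the GABA-B receptor gene Gabbr2 the deposited values were -30.4 and -50.8 points against 65.0 and 45.8 points. Klhl29 had -48.0 and -30.4 points against 26.9 and 62.0 points, and Dixdc1, a Wnt pathway protein gene, -51.0 and -44.8 points against 56.0 and 20.1 points. Some single tiles spanned nearly the whole scale: Cracd had -84.4 and 92.3 points, and Fam189a1 -80.3 and 100 points. Each such value rests on the 2-month library of its own line as much as on the long culture.

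The rule looks at single tiles, and many of the 1133 had a neighbour that BrafV600E tables do list. A BrafV600E-listed tile lay within 500 bp of 640 of them (56.5%). The share was 76.4% for shared gains (479 of 627), 13.2% for shared losses (24 of 182), 44.6% for tiles lower in line 1 and higher in line 3 (128 of 287) and 24.3% for the reverse (9 of 37). Beside the 479 gains the neighbours were gains only in 246 cases, losses only in 98 and both in 135. For tiles listed for long culture in 1 line alone, the share was 39.8% for gains and 18.5% for losses in line 1, and 44.6% and 12.0% in line 3. Dense regions offer more tiles to be listed, and the part of CpG density in these shares was not tested.

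With no BrafV600E-listed tile within 500 bp, 493 tiles remained, of which 148 gained (30.0%) and 158 lost in both lines, so that shared losses outnumbered shared gains, and 27.4% were at gene ends. At gene ends 60 genes then gained and 17 lost. Of the genes on the homeobox list 3 were left, among them Six2 (1 tile, 49.4 and 66.2 points) and Nkx2-5 (37.1 and 36.8 points), and of the other developmental factors 2, Heyl (57.3 and 33.4 points) and Twist1. The gene group counts above thus hold for the tiles themselves and not for their surroundings. Of the 415 gaining genes 351 also had a gain listed in a BrafV600E table somewhere in the gene or within 1 kb. The same share over all genes with a listed tile is not available here. Genes with many listed tiles offer more chances, so nothing is read from the 351.

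No BrafV600E-listed tile lay anywhere in or within 1 kb of 31 of the 415 gaining genes and 22 of the 84 losing genes. For these counts too, the share over all genes with a listed tile is not available. Among the gains were Gdf11, Lrif1 (53.9 and 63.5 points), the receptor kinase gene Axl (2 tiles, mean 34.9 and 37.3 points), the homeobox gene Lbx2 (31.6 and 57.9 points), Asrgl1 (34.7 and 81.5 points), Htr1f, Dmc1 and Twist1. Hspd1 and Hspe1, which encode the mitochondrial chaperonins and share a start region, had 1 tile in common (36.9 and 26.7 points). Among the losses were Stim2, Sesn2, Tmprss12, Gpr137, the glycosyltransferase gene Mgat2 (-83.6 and -37.8 points) and Npepl1 (-67.2 and -52.5 points). Other losses were at Suv39h1, a histone H3 lysine methyltransferase on the X chromosome (-29.6 and -33.6 points), at Rybp, a Polycomb complex subunit (-37.1 and -29.0 points), and at Dicer1, which makes microRNAs (-40 and -27.5 points in the authors' deposited tables). The genes of this paragraph that are named nowhere above were picked after their values were seen.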

How the data were processed

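The 1133 tiles, the gene lists and the named genes were chosen with earlier results of these data known. Sequencing was single-end over 50 bp, with roughly 10% phiX mixed in, as the labels' protocols state. The submitters' processing notes name Bismark 0.14.3, methylKit 1.7.4, Trim Galore 0.4.4 and FastQC 0.11.7 and the build GRCm38 (mm10). Neither trimming settings nor a coverage minimum is given in the sources used here. The authors deposited 8 tables whose columns, per the file headers, are tile position, p-value, q-value and meth.diff, the methylation difference in percentage points (percent methylated, negative for losses).

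Tiles were joined on chromosome, start and end with Python 3.11.15 and pandas 2.3.3, and the joining and counting steps were tested on simulated data. Tiles within 500 bp were merged into regions. Genes are 21887 protein-coding RefSeq genes of GRCm38.p6 (17492 with a strand), and a gene end reaches 1 kb to either side. Only the outer ends of a gene count, so tiles at annotated starts further inside it are not at a gene end. No genome was used here, so sequence content comes from the 300 bp promoter windows and not, as planned, from whole tiles. Shares have exact Clopper-Pearson 95% intervals (scipy 1.17.1). No test was made, since the rule used these comparisons and each table sets 1 library against 1.

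Named genes were ranked by the number of the 1133 tiles that moved the same way in both lines with no opposite tile, then by the smaller absolute mean difference: 15 gaining, 10 losing, the 6 with most opposite tiles, the 5 gaining and 5 losing tiles and 4 opposite tiles with the largest smaller difference, the runs with most tiles, and up to 4 genes per list; others named were chosen after their values were seen. Alternatives were at least 40 points, q under 0.001, no BrafV600E tile within 500 bp, autosomes, other merge distances and gene windows, and each line alone. Some named items are not reported here.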

Additional observations from a re-analysis of the deposited data

Results flagged for a closer look

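The lines moved in opposite directions at 324 of the 1133 tiles. At 287 of them methylation was lower after long culture in line 1 and higher in line 3, and at 37 it was the reverse. Over all tiles listed for long culture, gains made up 40.9% in line 1 and 71.9% in line 3. A like skew was seen among the tiles just outside the rule. Each line has 1 library per time point, so the difference between the lines was not tested. The cultures also differ in age (12 and 14 months), and the library titled 14 months carries 2 months in other label fields.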

How the results depend on the processing

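Over 11 alternative settings 73 values were recomputed for 13 results; 36 stayed within a tolerance and 37 moved. The tolerance was 1.5 times for a count, the reported value's 95% interval for a share or the CpG median, and the SD between the lines (5.55 points) for a median gain, so it is wider for counts than for shares. With at least 40 points in both lines, 370 tiles in 355 regions remained, 48.6% of tiles gaining in both, 3.66% of regions with at least 2 tiles, 32.7% of tiles at gene ends, a median of 6.86 CpG pairs per 100 bases, median gains of 52.0 and 56.1 points, 77 gaining and 6 losing genes, 6 homeobox genes and 7 other developmental factors. With q under 0.001 there were 697 tiles in 627 regions, 66.7% gaining in both, 75.3% in the same direction and 50.8% at gene ends. Without any BrafV600E-listed tile within 500 bp there were 493 tiles in 478 regions, 30.0% gaining in both, 62.1% in the same direction, 2.72% of regions with at least 2 tiles, 27.4% at gene ends, 60 gaining genes, 3 homeobox genes and 2 other developmental factors. Regions in place of tiles gave 51.9% gaining in both; merging within 100 or 2000 bp gave 5.34% and 10.9% of regions with at least 2 tiles. Windows of 2 kb gave 54.2% of tiles at gene ends and 35 losing genes, and whole genes gave 84 losing genes and 40 homeobox genes gaining. With 1 line left out, 5879 to 14560 tiles qualified, with 29.0% to 31.1% at gene ends. For the left-out line this drops both the demand of a long-culture listing and that of absence from its BrafV600E tables. The causes of these shifts were not tested. Without BrafV600E-listed neighbours the shared gains (148) were fewer than the shared losses (158). No paired analysis was possible because the results come from no test. Depth is unknown, so no limit from read counts could be given.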

Other observations

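MicroRNA hairpins annotated within 1 kb of one of the 1133 tiles were few. The tile near Mir5130 gained 23.7 points in line 1 and 64.7 points in line 3 in the authors' deposited tables, and the tile near Mir1199 gained 22.6 and 30.1 points. Mir219a-1 and Mir219c, which lie together, had a tile with -23.2 points in line 1 and 32.1 points in line 3.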
